A study of Mus musculus with 36 samples.

Results

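Cholesterol synthesis and its control were followed through 28 genes in primordial germ cells (PGCs), the precursors of eggs and sperm, and in whole fetal gonads of mice exposed to intrauterine hyperglycemia (IUHG). The genes were taken from a list of symbols, and each symbol was found in every library, among 57126 gene IDs in the tables of PGCs and 56262 in the tables of gonads. They comprised 18 enzymes of cholesterol synthesis, 5 genes of SREBP control, 2 of sterol transport and 3 of fatty acid synthesis and desaturation. The 36 RNA-seq libraries made 12 groups with 3 libraries each. A control and an IUHG group were taken from whole gonads of females at E13.5, from PGCs without a sex in the labels at E12.5, and from PGCs of each sex at E13.5 and again at E16.5. Dams carrying IUHG fetuses had received 120 mg/kg streptozotocin (STZ), a drug toxic to pancreatic β-cells, on day 3.5 of pregnancy. They were included when their glucose was above 14 mM on day 6.5. Libraries from STZ-treated dams without high glucose are not among those used here, so in these data the drug and the high glucose cannot be told apart. All dams were 8 weeks old at mating. Fetuses were wild type in the labels, and for PGCs the dams were mated with males carrying *Oct4-EGFP*, a reporter by whose fluorescence the PGCs were sorted. The paper names ICR mice for its wild-type matings and gives no strain for the dams mated with *Oct4-EGFP* males. Each PGC sample pooled many fetuses and each gonad sample pooled several pairs of gonads.

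Cells make cholesterol from acetyl-CoA through mevalonate, farnesyl diphosphate and squalene. When sterols in the endoplasmic reticulum are low, SCAP carries the SREBP transcription factors to the Golgi for cleavage, and the released factors switch on most enzymes of the pathway. INSIG proteins hold SCAP back when sterols are plentiful, so *Insig1*, itself an SREBP target, is part of a feedback loop. Fetal steroid-producing cells of the testis draw on the same pathway for hormone synthesis.

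Levels are given as TPM, transcript abundance scaled for transcript length and to a common library total, and log2 fold changes with standard errors (SE) are differences of log2(TPM + 1). Genes whose mean reached 1 TPM in either group of a comparison entered the limma test, and p-values were adjusted over all genes tested. In PGCs a call needed an adjusted p below 0.01 with more than a 2-fold difference, and in gonads one below 0.05 with at least a 2-fold difference. For PGCs the study's methods give p below 0.01 without naming an adjustment, and it was read here as adjusted. The study used DESeq2 rather than limma, so calls here are not the study's own. Since the samples were pools, p-values measure the spread between pools. In bulk samples, fewer cells of a type and less RNA per cell cannot be told apart. Aligned bases ranged from 3.25 to 8.32 gigabases in PGCs and from 3.89 to 4.95 in gonads, and the number of reads behind a gene is unknown.

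Some libraries carried transcripts of other cells. Control gonad sample 1 held 51.3 TPM over 4 Y-linked genes, which were listed at 0 in the other 5 gonad samples, and its 4 steroidogenic markers (*Star*, *Cyp11a1*, *Cyp17a1* and *Hsd3b1*) summed to 295 TPM against 10.6 to 37.5 in the others. Its 4 Sertoli markers summed to 230.2 TPM against 24.2 to 34.2. In E13.5 male PGCs the steroidogenic markers summed to 21.0 to 26.6 TPM in control samples and 0.857 to 3.89 in IUHG samples, and all 4 were lower without overlap. At E12.5 the Y-linked sum was 194 to 212 TPM in control and 129.6 to 154 TPM in IUHG pools. In males it was 151 to 183 against 116 to 119.6 TPM at E13.5, and 78.1 to 98.8 against 116 to 123 TPM at E16.5. The 5 pan-germ markers were above 1 TPM on average in every PGC group, at summed levels of 1269 to 8880 TPM.

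Promoters show where the known control sequences lie. RefSeq windows on GRCm38.p6, from 250 bases before to 50 bases after the transcript start, were at hand for 21 of the 28 genes. The sequences of 4 genes to which the results return are shown 5′ to 3′ on the gene's strand, with capitals marking the sterol regulatory element core TCACNCCAC, the NF-Y box CCAAT, the Sp1 box GGGCGG and their reverse complements. *Hmgcs1* (mevalonate pathway), *Msmo1* (sterol demethylation), *Srebf2* (the SREBP of sterol synthesis) and *Ebp* (sterol isomerase) lie at chr13:119690101-119690400 (plus strand), chr8:64733529-64733828 (minus), chr15:82147019-82147318 (plus) and chrX:8193463-8193762 (minus).
Hmgcs1: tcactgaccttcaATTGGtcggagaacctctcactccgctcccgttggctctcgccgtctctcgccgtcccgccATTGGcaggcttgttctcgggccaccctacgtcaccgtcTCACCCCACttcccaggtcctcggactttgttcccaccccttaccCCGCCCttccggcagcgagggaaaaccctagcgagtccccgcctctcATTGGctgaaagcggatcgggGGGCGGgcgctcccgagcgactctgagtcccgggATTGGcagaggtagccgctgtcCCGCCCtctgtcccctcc
Msmo1: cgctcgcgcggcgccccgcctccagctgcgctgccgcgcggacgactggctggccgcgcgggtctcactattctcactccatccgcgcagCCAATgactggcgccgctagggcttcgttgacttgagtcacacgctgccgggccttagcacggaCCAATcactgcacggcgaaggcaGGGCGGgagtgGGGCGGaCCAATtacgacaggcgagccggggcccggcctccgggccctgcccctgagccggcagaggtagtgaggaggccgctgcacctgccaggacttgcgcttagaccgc
Srebf2: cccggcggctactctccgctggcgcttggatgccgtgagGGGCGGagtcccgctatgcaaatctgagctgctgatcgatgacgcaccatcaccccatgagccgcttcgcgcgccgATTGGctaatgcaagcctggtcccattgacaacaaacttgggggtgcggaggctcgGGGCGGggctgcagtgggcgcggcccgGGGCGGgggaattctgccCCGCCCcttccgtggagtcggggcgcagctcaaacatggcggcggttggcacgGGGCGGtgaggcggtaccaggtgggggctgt
Ebp: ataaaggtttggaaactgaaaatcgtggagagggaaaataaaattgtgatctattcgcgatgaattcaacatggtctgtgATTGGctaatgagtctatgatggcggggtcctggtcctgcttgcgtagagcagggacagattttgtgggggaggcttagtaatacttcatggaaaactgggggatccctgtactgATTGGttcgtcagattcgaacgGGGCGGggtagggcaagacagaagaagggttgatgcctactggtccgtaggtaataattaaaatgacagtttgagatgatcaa

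Both strands were searched in all windows, counting a gene when any of its windows held the motif. TCACNCCAC was found in 1 of the 21 genes (4.76%), in *Hmgcs1* as TCACCCCAC, and in 1.44% of 27025 genes with a window. TCACCCCAC, a special case of it, was in 0.614% of all genes. The NF-Y box was in 19 of the 21 genes (90.5%) and in 41.1% of all genes, and the Sp1 box was also in 19 of the 21 (90.5%) and in 38.2% of all genes. Read along the gene's own strand, *Msmo1* carried 3 NF-Y boxes as CCAAT, and *Hmgcs1* carried 4 as the reverse complement. These are matches of letters, not binding sites, and a missing match says only that these letters are not in the window.

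In control PGCs the pathway was led by *Fdps*, the synthase of farnesyl diphosphate, which was the highest of the 28 genes in each of the 5 control groups. *Fdps* stood at 521 ± 21.5 TPM (SD, n = 3) at E12.5, 614 ± 72.5 in E13.5 females, 449 ± 17.5 in E13.5 males, 134 ± 8.07 in E16.5 females and 306 ± 30.7 in E16.5 males. The 18 enzymes together summed to 1695 ± 6.00 TPM at E12.5, 1587 ± 145 in E13.5 females and 1272 ± 14.0 in E13.5 males. By E16.5 the sum was 505 ± 25.3 TPM in females and 847 ± 42.8 in males. All 3 samples of each E16.5 control group therefore lay below all E12.5 and E13.5 control samples. Of the 18 enzymes, 7 had their highest control mean at E12.5, 8 in E13.5 females, 2 in E13.5 males and 1 in E16.5 males. Their lowest control means lay in E16.5 PGCs for 14 enzymes, 7 in each sex.

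Whole gonads, in which germ cells are a minority, had another order. *Scd2*, a stearoyl-CoA desaturase that makes monounsaturated fatty acids, was their highest of the 28 genes with 309 ± 20.5 TPM in control samples, against 23.7 ± 4.39 TPM in control PGCs of the same stage and sex. *Scd1*, its close paralog, stood at 12.3 ± 1.11 TPM in gonads and at 2.11 ± 0.689 TPM in those PGCs, and reads that both genes share could be split between them. *Fasn*, the fatty acid synthase, had 66.8 ± 1.08 TPM in gonads and 10.2 ± 1.18 in PGCs. Gonads and PGCs were prepared, aligned and scaled separately, so these levels are set side by side without a test.

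From E13.5 to E16.5, cholesterol genes fell in control female PGCs, the interval in which these cells pass through meiotic prophase. Among the 28 genes 13 fell and 0 rose, against 9.78% of all genes tested that fell and 18.4% that rose (limma; 21 of the 28 had an unadjusted p under 0.05). Their median log2 fold change was -1.04, beside 0.31 for all genes. *Idi1*, the isomerase that feeds isoprenoid synthesis, measured 58.9, 54.3 and 63.5 TPM at E13.5 and 6.49, 6.54 and 3.46 TPM at E16.5, a log2 fold change of -3.24 ± 0.23 (adjusted p = 3.69e-06). *Fdps* fell with it, with 635, 533 and 673 TPM before and 144, 130.3 and 129 TPM after, and a log2 fold change of -2.18 ± 0.11 (adjusted p = 5.14e-07). In both genes every E16.5 sample lay under every E13.5 sample. Over the same samples the pan-germ sum went from 4473 to 4767 TPM to 1778 to 2043 TPM, and the sum of 5 interstitial markers from 10.4 to 16.4 TPM to 22.5 to 66.4 TPM, and their part in the fall was not tested.

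The early mevalonate steps fell with them. *Acat2*, a thiolase forming acetoacetyl-CoA, went from 156, 114 and 149 TPM to 37.9, 35.2 and 37.2 TPM, a log2 fold change of -1.89 ± 0.14 (adjusted p = 5.50e-06). *Hmgcs1*, the HMG-CoA synthase whose promoter is shown above, went from 114, 106 and 123 TPM to 34.5, 35.0 and 31.3 TPM, a log2 fold change of -1.74 ± 0.12. *Pmvk*, the phosphomevalonate kinase, changed by -1.65 ± 0.20 on the log2 scale. Of the 5 genes of these steps only *Mvk* and *Mvd* did not pass the test, with log2 fold changes of 0.03 and -0.77.

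In the steps from squalene to cholesterol 5 of 10 enzymes fell. *Sqle*, the squalene epoxidase, fell least of them, from 122, 87.5 and 112 TPM to 51.9, 51.5 and 40.2 TPM (log2 fold change -1.14 ± 0.16). *Msmo1* fell from 61.0, 67.8 and 65.0 TPM to 15.7, 21.4 and 15.1 TPM (-1.85 ± 0.17), and *Dhcr7*, the last reductase of the pathway, from 58.9, 46.2 and 58.3 TPM to 9.41, 12.47 and 11.9 TPM (-2.18 ± 0.18). *Ebp* and *Tm7sf2*, a sterol reductase, fell as well. *Ebp* had 28.0, 37.2 and 30.4 TPM at E13.5 and 8.07, 0.679 and 1.45 TPM at E16.5, and *Tm7sf2* changed by -2.25 ± 0.27. The samples of *Ebp* at E16.5 ranged more widely relative to their mean than those of the other called genes, and its call was lost without the TPM filter at the same fold change. *Lss*, the cyclase that forms lanosterol, and *Hsd17b7*, a sterol ketoreductase, did not pass, at log2 fold changes of 0.21 and 0.03.

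*Srebf2* also fell, whereas the *Insig* genes, with *Insig1* itself an SREBP target, did not. *Srebf2* measured 55.4, 52.6 and 58.5 TPM at E13.5 and 3.89, 6.44 and 6.28 TPM at E16.5, a log2 fold change of -3.14 ± 0.20 (adjusted p = 2.26e-06). *Insig1* measured 48.4, 57.9 and 52.8 TPM and 49.1, 74.1 and 80.2 TPM (0.32 ± 0.19, adjusted p = 0.166), and its groups overlapped. *Insig2*, which is regulated less by SREBPs, measured 25.0, 23.4 and 29.4 TPM and 38.0, 40.9 and 48.7 TPM (0.69 ± 0.16, adjusted p = 0.00511), higher in all E16.5 samples but under the fold threshold. *Srebf1*, the SREBP of fatty acid synthesis, and *Scap* had log2 fold changes of -0.75 and 0.45 and were not called. *Scd2* fell by 2.98 on the log2 scale, and *Stard4*, a carrier of cholesterol between membranes, changed by -1.51 ± 0.32, a call lost without control E13.5 female sample 2 (-1.26) or control E16.5 female sample 3 (-1.22), and without the TPM filter. With median-of-ratios scaling, where the median of all genes was 0.07, 19 of the 28 genes fell and 0 rose.

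In male control PGCs, which stop dividing over the same interval, *Tm7sf2*, *Lss*, *Sqle* and other enzymes fell. Of the 27 genes tested (*Scd1* was under the TPM minimum) 9 fell and 2 rose, against 12.7% of all genes that fell and 38.3% that rose, and the median log2 fold change was -0.26 beside 0.62 for all genes. *Tm7sf2* fell most, from 15.9, 18.7 and 16.3 TPM to 2.03, 1.93 and 1.56 TPM (log2 fold change -2.66 ± 0.13, adjusted p = 2.54e-07). *Lss* went from 13.9, 15.8 and 16.1 TPM to 2.44, 3.28 and 2.58 TPM (-2.12 ± 0.13). Both enzymes had become low in every E16.5 male sample. The pan-germ sum in these groups was 8292 to 8880 TPM at E13.5 and 1269 to 1466 TPM at E16.5, and the interstitial sum 6.52 to 8.30 TPM and 21.9 to 38.5 TPM, and their part in the changes was not tested.

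*Sqle* fell from 109.6, 117 and 117 TPM to 30.4, 30.2 and 27.7 TPM (-1.93 ± 0.07) and *Cyp51*, the lanosterol demethylase, from 20.8, 22.3 and 21.7 TPM to 7.86, 6.68 and 5.92 TPM (-1.54 ± 0.11). *Acat2* (-1.54 ± 0.08), *Hmgcs1* (-1.09 ± 0.06), *Idi1* (-1.15 ± 0.12), *Pmvk* (-1.01 ± 0.15) and *Srebf1* (-1.03 ± 0.08) completed the genes that fell. The calls of *Pmvk* (without control E13.5 male sample 3, -0.97, or control E16.5 male sample 3, -0.85, and with FPKM, -0.97) and *Srebf1* (without control E16.5 male sample 1, -0.997) lay at the fold threshold. *Srebf2* stood at 72.8, 88.7 and 82.1 TPM and 79.2, 73.7 and 62.5 TPM, with overlapping groups (-0.18 ± 0.11, adjusted p = 0.15). *Sc5d*, a sterol desaturase, rose from 3.60, 3.17 and 3.26 TPM to 9.61, 9.40 and 9.51 TPM (1.28 ± 0.11), and *Insig2* from 6.25, 6.37 and 6.93 TPM to 19.5, 17.7 and 15.1 TPM (1.29 ± 0.12). With median-of-ratios scaling, where all genes had a median of 0.26, 0 rose and 11 fell, and *Sc5d* (0.95) and *Insig2* (0.94) were then under the fold threshold.

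**Figure D1:**
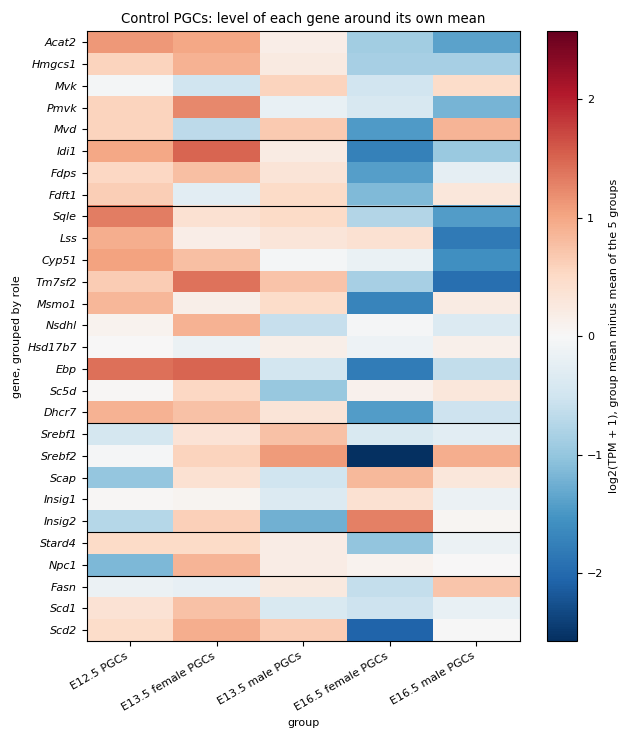
Level of the 28 genes (rows, grouped by role, from acetoacetyl-CoA and mevalonate steps at the top to fatty acid genes at the bottom) in the 5 control PGC groups (columns), as the mean log2(TPM + 1) of 3 samples minus the mean of the 5 groups. Red is above and blue below the gene's own mean. *Srebf2* is lowest in E16.5 females, while *Tm7sf2* and *Lss* are lowest in E16.5 males.

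From E12.5 to E13.5 the lysosomal exporter gene *Npc1* rose toward both sexes. The labels of E12.5 PGCs give no sex, and all E12.5 samples held Y-linked transcripts, so this step may also carry a sex difference. Toward E13.5 females 3 of the 28 genes rose (18.5% of all genes) and 1 fell (6.87%). *Npc1* rose from 7.92, 5.22 and 8.13 TPM to 30.7, 27.5 and 37.0 TPM (2.03 ± 0.19, adjusted p = 1.59e-05). *Scap* rose from 13.54, 6.37 and 9.23 TPM to 29.2, 20.6 and 29.0 TPM (1.38 ± 0.25, a call lost without the TPM filter) and *Insig2* from 10.4, 6.89 and 12.2 TPM to 25.0, 23.4 and 29.4 TPM (1.34 ± 0.20). The only gene that fell was *Mvd*, the diphosphomevalonate decarboxylase, from 55.6, 50.8 and 41.2 TPM to 24.4, 16.8 and 19.1 TPM (-1.26 ± 0.17). *Npc1* overlaps *Rmc1*, a gene on the opposite strand, by 305 bases. *Rmc1* had a higher mean level in PGCs (141 TPM against 21.4), and whether counting used strand was not given in the sources used here. With median-of-ratios scaling 3 rose and 4 fell, because *Fdft1*, *Sqle* and *Lss* then passed the fold threshold. The median of all genes went from 0.27 to -0.0007 with it.

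Toward E13.5 males 3 genes rose (8.95% of all genes) and 3 fell (7.26%). The genes that rose were *Npc1* (1.35 ± 0.17), *Srebf1* (1.21 ± 0.19) and *Srebf2* (1.12 ± 0.17). *Srebf2* went from 47.9, 26.5 and 38.5 TPM to 72.8, 88.7 and 82.1 TPM, and without control E12.5 sample 2 its fold change was 0.90, under the threshold. The calls of *Srebf1* and *Srebf2* were also lost without the TPM filter. *Ebp* fell from 30.6, 30.7 and 28.3 TPM to 6.84, 8.11 and 7.27 TPM (-1.88 ± 0.11, adjusted p = 4.33e-07), and *Cyp51* changed by -1.07 ± 0.08, a call lost with FPKM (-0.93). The fall of *Sc5d* (-1.01 ± 0.18) stood at the threshold and was lost without control E12.5 sample 1 (-0.88) or 3 (-0.97) or control E13.5 male sample 2 (-0.98) or 3 (-0.99), with FPKM (-0.77) and under median-of-ratios scaling (-0.98).

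Between the sexes at E13.5 the shares of the 28 genes called were near those of all genes. Of the 28 genes 7 were higher in female and 2 in male control PGCs, against 20.4% and 9.35% of all genes, and the median difference was 0.44 beside 0.28 for all genes. *Ebp* and *Nsdhl*, both X-linked, were higher in females. *Ebp* stood at 28.0, 37.2 and 30.4 TPM in females and 6.84, 8.11 and 7.27 TPM in males (log2 difference 1.96 ± 0.14, adjusted p = 3.82e-06), and *Nsdhl*, a sterol dehydrogenase, at 99.5, 88.9 and 96.6 TPM and 35.0, 33.6 and 31.9 TPM (1.48 ± 0.09). Neither gene overlapped between the sexes.

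*Insig2* was also higher in females, with 25.0, 23.4 and 29.4 TPM against 6.25, 6.37 and 6.93 TPM (1.83 ± 0.13). *Sc5d* (1.51 ± 0.15), *Pmvk* (1.42 ± 0.10), *Idi1* (1.30 ± 0.10) and *Scd1* (1.15 ± 0.22) completed the list. *Scd1* was low, at 2.11 TPM in females and 0.383 TPM in males, and its call was lost without control E13.5 female sample 2 (0.98) and without the TPM filter. With the male level under the TPM minimum it was tested through the female group alone, so it could only be called higher in females. Higher in males were *Mvd*, with 47.8, 53.2 and 56.1 TPM against 24.4, 16.8 and 19.1 TPM (-1.35 ± 0.14), and *Mvk*, the mevalonate kinase (-1.07 ± 0.17). The call of *Mvk* was lost without control E13.5 female sample 1 (-0.95) or control E13.5 male sample 3 (-0.94). Under median-of-ratios scaling 5 genes were higher in females and 3 in males, and *Idi1* (0.97) and *Scd1* (0.996) were no longer called. The median of all genes went from 0.28 to -0.03.

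At E16.5, 3 of 27 genes were higher in females and 7 were higher in males, against 22.9% and 28% of all genes. *Srebf2* gave the widest difference, with 3.89, 6.44 and 6.28 TPM in females and 79.2, 73.7 and 62.5 TPM in males (-3.50 ± 0.19, adjusted p = 2.90e-06). *Msmo1* (15.7, 21.4 and 15.1 TPM against 72.0, 63.6 and 67.3 TPM, -1.91 ± 0.15) and *Mvd* (15.3, 8.34 and 11.1 TPM against 60.8, 61.6 and 59.0 TPM, -2.33 ± 0.20) went the same way. *Fdft1*, the squalene synthase (-1.41 ± 0.12), *Fdps* (-1.18 ± 0.09), *Fasn* (-1.32 ± 0.17) and *Scd2* (-2.04 ± 0.27) were also higher in males.

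*Lss* and *Cyp51*, which act in succession on the way from squalene, were higher in E16.5 females than in males. *Lss* stood at 13.9, 21.3 and 14.3 TPM against 2.44, 3.28 and 2.58 TPM (2.198 ± 0.22), and *Cyp51* at 19.6, 20.3 and 19.1 TPM against 7.86, 6.68 and 5.92 TPM (1.41 ± 0.15). *Insig2* was higher in females again (1.24 ± 0.15), a call lost under median-of-ratios scaling (0.97). Steroidogenic markers summed to 23.7 to 98.1 TPM in these male samples and 3.31 to 4.99 TPM in the female ones, and their part in the difference was not tested. Under median-of-ratios scaling 2 genes were higher in females and 11 in males. The median of all genes also moved toward males, from -0.11 to -0.39.

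**Figure D2:**
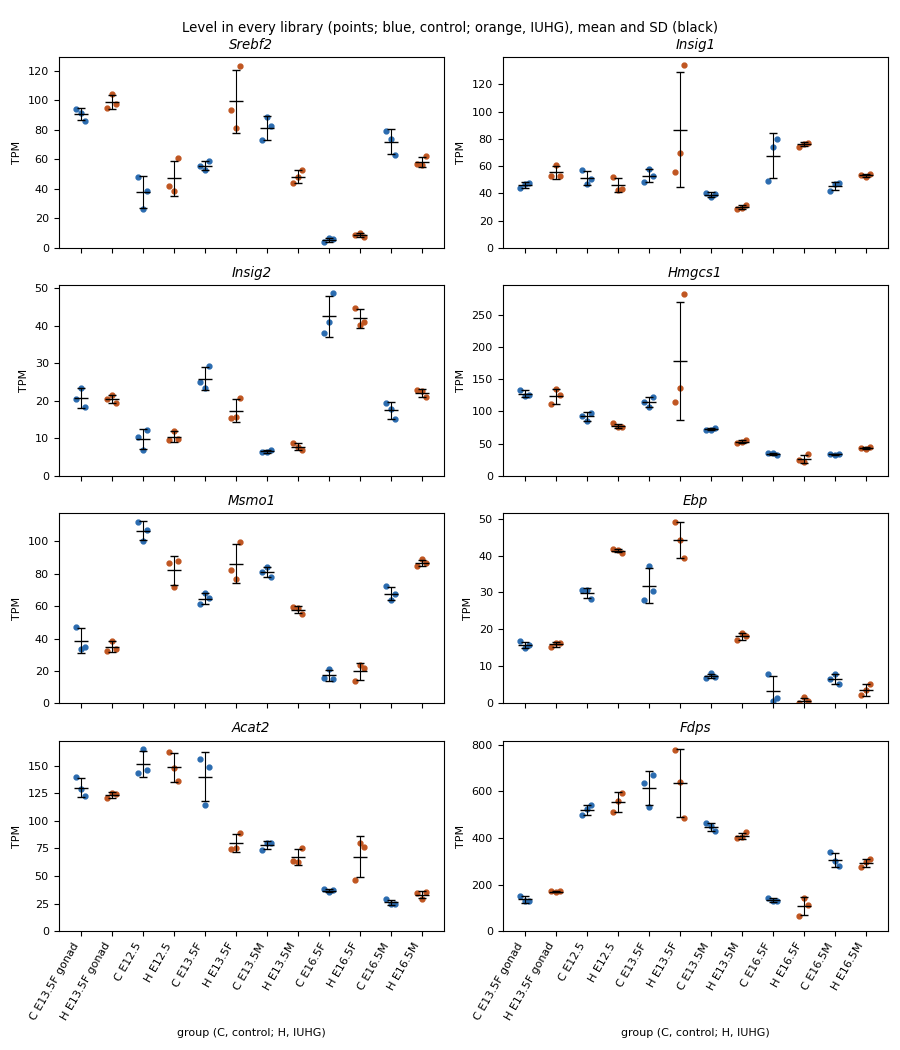
TPM of 8 genes (panels) in every library of the 12 groups (C, control, blue points; H, IUHG, orange points), with the mean and SD of 3 samples in black. *Srebf2* drops in E16.5 females only, *Ebp* is higher in IUHG than in control E13.5 males, and IUHG E13.5 female sample 3 is the highest point for *Hmgcs1* and *Insig1*.

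IUHG was compared with control in 6 settings, and 1 of the 28 genes was called in 1 of them. In E13.5 male PGCs *Ebp* rose from 6.84, 8.11 and 7.27 TPM in the control to 17.1, 19.1 and 18.2 TPM in the IUHG group (7.41 ± 0.645 and 18.1 ± 1.01, SD, n = 3), a log2 fold change of 1.19 ± 0.10 (adjusted p = 2.46e-05). Every IUHG sample lay above every control sample. The gene lies on chromosome X (8185329 to 8193512, minus strand, GRCm38, from the gonad tables), and its product moves a double bond within the sterol ring. Leaving out any 1 sample kept the call, while a fit of all PGC groups together left it above the adjusted p threshold with the same fold change.

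In the same samples 13 of the 18 enzymes had negative fold changes. Of the 27 genes tested 1 was called, against 3.92% of all genes. With the fold threshold dropped (adjusted p under 0.05) 9 genes were lower and 2 higher, against 18% and 15.2% of all genes. IUHG samples lay wholly below control samples in 11 genes and wholly above in 5, against 25.4% and 21.8%. The median log2 fold change was -0.18 for the 27 genes and -0.02 for all genes.

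The lower genes ran from mevalonate to cholesterol and included the SREBP genes. *Srebf2* had 72.8, 88.7 and 82.1 TPM in control samples against 43.7, 47.9 and 53.0 TPM in IUHG E13.5 males (log2 fold change -0.74 ± 0.09, adjusted p = 0.000268). *Dhcr7* had 38.0, 43.8 and 40.0 TPM and 25.2, 29.0 and 28.4 TPM (-0.55 ± 0.08, adjusted p = 0.000856), and *Msmo1* 81.0, 83.8 and 78.0 TPM and 59.3, 58.8 and 55.2 TPM (-0.48 ± 0.06, adjusted p = 0.000252). None of these groups overlapped, and each change was under the fold threshold.

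*Hmgcs1* had 70.9, 71.1 and 73.7 TPM in control samples against 50.2, 52.8 and 55.2 TPM in IUHG males (-0.44 ± 0.06, adjusted p = 0.000454). *Mvd* (-0.43 ± 0.08), *Fdft1* (-0.41 ± 0.06), *Insig1* (-0.38 ± 0.07), *Scd2* (-0.37 ± 0.09) and *Srebf1* (-0.30 ± 0.07) made up the 9. *Fdft1* overlaps *Ctsb*, a gene on the opposite strand, by 774 bases. *Pmvk* went the other way, from 18.6, 18.3 and 19.9 TPM to 33.6, 36.7 and 32.2 TPM (0.82 ± 0.08, adjusted p = 5.97e-05). In *Fdps* and *Tm7sf2* the IUHG samples were lower, and in *Cyp51*, *Sc5d* and *Npc1* higher, without overlap and at adjusted p above 0.05.

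The steroidogenic markers differed in the same samples, as given above, and *Cyp11a1*, *Cyp17a1* and *Hsd3b1* were called. All 4 markers averaged under 1 TPM in IUHG males and were tested through the control level, so they could only fall. *Cyp11a1*, the side-chain cleavage enzyme that starts steroid synthesis from cholesterol, averaged 7.66 ± 1.77 TPM in control samples against 0.228 ± 0.214 TPM in IUHG males (-2.81 ± 0.20, adjusted p = 9.27e-06). Of the Sertoli markers *Amh* was lower (-0.63 ± 0.13, adjusted p = 0.00538). The interstitial sum was 6.52 to 8.30 TPM in control and 2.57 to 3.77 TPM in IUHG males, and the sum of 4 pregranulosa markers 14.5 to 18.8 and 6.86 to 7.74 TPM. The part of these cells in the lower sterol genes was not tested.

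In E16.5 male PGCs 19 of 27 fold changes were positive. None of the 27 genes was called, against 0.201% of all genes, and 12 had an unadjusted p under 0.05 (limma). With the fold threshold dropped (adjusted p under 0.05) 4 enzymes were higher and 0 genes lower, against 3.38% and 2.54% of all genes. IUHG samples lay wholly above control samples in 11 genes and wholly below in 1, *Srebf2*, against 17.8% and 12%. The median log2 fold change was 0.19, beside 0.04 for all genes.

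The 4 enzymes were *Hmgcs1*, *Sqle*, *Msmo1* and *Sc5d*. *Msmo1* had 72.0, 63.6 and 67.3 TPM in control samples against 84.6, 88.7 and 86.3 TPM in IUHG E16.5 males (0.35 ± 0.07, adjusted p = 0.0294). *Hmgcs1* had 34.0, 32.3 and 33.7 TPM and 42.3, 42.0 and 45.0 TPM (0.36 ± 0.08, adjusted p = 0.0345), and *Sqle* 30.4, 30.2 and 27.7 TPM and 39.8, 38.9 and 36.3 TPM (0.37 ± 0.09, adjusted p = 0.0412). Each of them separated the groups fully.

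*Sc5d* had 9.61, 9.40 and 9.51 TPM and 16.1, 14.7 and 13.0 TPM (0.56 ± 0.12, adjusted p = 0.0299). *Hsd17b7*, at 9.50, 10.6 and 9.41 TPM and 14.8, 13.3 and 13.3 TPM, also separated the groups but had an adjusted p of 0.0528. *Srebf2* had 79.2, 73.7 and 62.5 TPM in control samples against 56.4, 56.1 and 62.3 TPM in IUHG males (-0.29 ± 0.10, adjusted p = 0.114). In these samples the steroidogenic markers were lower in IUHG (12.2 to 23.7 TPM, against 23.7 to 98.1 TPM), opposite to the enzymes, while the interstitial markers were higher (41.2 to 44.1 TPM, against 21.9 to 38.5 TPM), as the enzymes were. The part of either in the differences was not tested.

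In E13.5 female PGCs none of the 28 genes was called, against 0.514% of all genes, and 6 had an unadjusted p under 0.05 (limma). With the fold threshold dropped (adjusted p under 0.05) 0 genes were higher or lower, against 1.06% and 1.99% of all genes. IUHG samples lay wholly above control samples in 8 genes and wholly below in 2, against 19.8% and 13.2%. The median was 0.21 beside 0.14 for all genes, and with median-of-ratios scaling it was 0.06 and the count of genes with a positive fold change went from 21 to 17.

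The changes closest to the threshold were in *Acat2* and *Srebf2*. *Acat2* had 156, 114 and 149 TPM in control samples against 74.2, 75.6 and 89.2 TPM in IUHG females (-0.80 ± 0.19, adjusted p = 0.0598). *Srebf2* had 55.4, 52.6 and 58.5 TPM and 93.1, 81.0 and 123 TPM (0.80 ± 0.21, adjusted p = 0.0686). *Npc1* had 30.7, 27.5 and 37.0 TPM and 52.9, 43.9 and 68.3 TPM (0.76 ± 0.23, adjusted p = 0.104). *Fasn* (0.94), *Hsd17b7* (0.78), *Mvk* (0.48), *Ebp* (0.46), *Msmo1* (0.40) and *Fdft1* (0.21) were also higher and *Insig2* (-0.56) lower without overlap.

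IUHG E13.5 female sample 3 stood apart in this pathway. It was the highest of its group in 21 of the 28 genes, and its median ratio to the mean of the other samples of the group was 1.37. *Hmgcs1* had 114, 106 and 123 TPM in control samples against 114, 136 and 283 TPM in IUHG samples, and *Insig1* 48.4, 57.9 and 52.8 TPM and 55.4, 69.9 and 135 TPM. For *Hmgcs1* the log2 fold change was 0.52 with this sample and 0.12 without it, for *Insig1* 0.60 and 0.23, and for *Scd2* 0.46 and 0.09. *Srebf2* was at 0.64 without the sample. The interstitial sum was 10.4 to 16.4 TPM in control and 6.497 to 9.14 TPM in IUHG females, the steroidogenic sum 1.02 to 1.90 and 2.43 to 5.93 TPM, and their part was not tested.

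At E12.5 no gene was called, against 0.247% of all genes, and 10 of 28 had an unadjusted p under 0.05 (limma). At an adjusted p under 0.05 the count was 0 in both directions, against 0.879% of all genes that were higher and 0.697% lower. IUHG pools lay wholly below control pools in 7 genes and wholly above in 2, against 9.12% and 13.3%. *Dhcr7* came closest among the lower genes, with 65.4, 56.7 and 59.1 TPM in control samples against 45.7, 39.5 and 44.2 TPM in IUHG pools (-0.48 ± 0.11, adjusted p = 0.0677).

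*Idi1* (-0.43), *Mvk* (-0.39), *Cyp51* (-0.38), *Msmo1* (-0.38), *Hmgcs1* (-0.25) and *Scd1* (-0.63) were the others lower at E12.5. *Scd1* was near the TPM minimum, at a mean of 1.34 TPM in control and 0.510 TPM in IUHG pools. It was tested through the control group alone, so it could only be counted as lower. *Ebp* was higher, with 30.6, 30.7 and 28.3 TPM and 41.7, 41.5 and 40.8 TPM (0.45 ± 0.10, adjusted p = 0.0662), as was *Npc1* (0.30). *Ebp* was thus above control without overlap at E12.5 and in both sexes at E13.5. The Y-linked sum was lower in the IUHG pools, as given above, as were the interstitial sum (0.507 to 1.17 TPM, against 4.74 to 7.28 TPM) and the Sertoli sum (1.75 to 2.104 TPM, against 2.80 to 4.03 TPM). Their part and the share of each sex in the pools were not tested.

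In E16.5 female PGCs none of the 27 genes tested was called, against 0.736% of all genes, and 6 had an unadjusted p under 0.05 (limma). At an adjusted p under 0.05, 1 gene was higher and 1 lower, against 2.56% and 3.08% of all genes. *Acat2* was higher, with 37.9, 35.2 and 37.2 TPM in control samples against 46.6, 79.9 and 76.2 TPM in IUHG samples (0.82 ± 0.20, adjusted p = 0.0491). *Fdft1* was lower, with 73.0, 75.9 and 57.7 TPM and 41.2, 39.2 and 39.0 TPM (-0.76 ± 0.15, adjusted p = 0.0218). Without IUHG sample 1 of this group *Acat2* was called (1.07, adjusted p = 0.00797).

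*Mvd* had the largest fold change, with 15.3, 8.34 and 11.1 TPM in control samples against 6.38, 2.12 and 4.51 TPM in IUHG samples (-1.28 ± 0.37, adjusted p = 0.0785). Groups did not overlap in 7 genes with IUHG higher and 4 with IUHG lower, against 14.9% and 14.1% of all genes. *Srebf2*, low at this stage, was among the higher, with 3.89, 6.44 and 6.28 TPM and 8.66, 10.1 and 7.63 TPM (0.60 ± 0.29, adjusted p = 0.246). *Ebp*, with 8.07, 0.679 and 1.45 TPM in control samples against 0, 1.69 and 0.551 TPM in IUHG samples, did not separate the groups. The interstitial sum was 22.5 to 66.4 TPM in control and 83.9 to 116 TPM in IUHG females, and the Sertoli sum 2.67 to 4.63 and 1.46 to 2.16 TPM, and their part in these differences was not tested.

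In whole E13.5 female gonads the differences were small. No gene was called, against 0.612% of all genes, 6 of 28 had an unadjusted p under 0.05 (limma), and the median log2 fold change was 0.02 beside 0.01 for all genes. At an adjusted p under 0.05, 1 gene was higher and 0 lower, against 1.43% and 1.05%. This gene was *Fdps*, with 152, 130.0 and 128 TPM in control samples against 172, 169 and 172 TPM in IUHG gonads (0.32 ± 0.07, adjusted p = 0.0475, and 0.40 without control sample 1). IUHG samples lay wholly above control samples in 5 genes and wholly below in 4, against 14.5% and 11.3%.

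*Insig1* had 44.1, 46.9 and 47.8 TPM in control samples against 52.6, 61.0 and 52.7 TPM in IUHG gonads (0.25 ± 0.07, adjusted p = 0.112), and *Npc1* 32.1, 39.8 and 39.0 TPM and 47.1, 49.98 and 44.4 TPM (0.35 ± 0.09). *Mvd* (0.26) and *Srebf2* (0.12) were higher too. *Scd2* was lower, with 325, 316 and 286 TPM and 257, 264 and 265 TPM (-0.24 ± 0.05, adjusted p = 0.0625), and so were *Scd1* (-0.30), *Tm7sf2* (-0.24) and *Cyp51* (-0.19). *Tm7sf2* was at -0.11 and *Cyp51* at -0.13 without control sample 1, the library with Y-linked transcripts. Pan-germ markers summed to 440.1 to 520 TPM in control and 619 to 728 TPM in IUHG gonads, interstitial markers to 2292 to 2529 and 1671 to 1816, blood markers to 8896 to 11212 and 5498 to 6632, and their part in these differences was not tested.

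**Figure D3:**
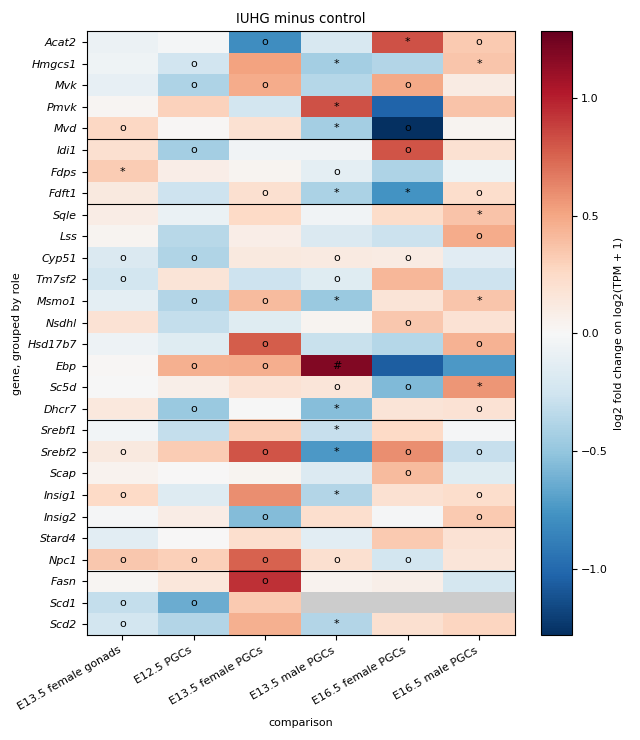
Log2 fold change of IUHG against control for the 28 genes (rows, by role) in the 6 comparisons (columns), red where IUHG is higher. A hash marks the called gene, an asterisk an adjusted p under 0.05 whatever the fold, a circle groups that do not overlap, and grey a gene under the TPM minimum. Blue cells with asterisks gather in E13.5 males, and red ones in E16.5 males.

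Whether the IUHG difference itself changed was tested with interactions, called at an adjusted p below 0.01 whatever their size. In males it differed between E16.5 and E13.5 for 7 of 27 genes, 6 toward higher and 1 toward lower at E16.5, against 4.94% and 3.35% of all genes. *Hmgcs1* gave a difference of 0.80 ± 0.09 (adjusted p = 6.67e-05), *Msmo1* of 0.83 ± 0.09 and *Dhcr7* of 0.73 ± 0.12. *Fdft1* (0.64 ± 0.09), *Insig1* (0.60 ± 0.10) and *Sqle* (0.41 ± 0.09) followed. Except for *Sqle*, the called genes with a positive difference went from lower in all IUHG samples at E13.5 to higher in all at E16.5. *Ebp* changed in the opposite sense (-1.92 ± 0.29, adjusted p = 0.000698), from 1.19 at E13.5 to -0.73 at E16.5. Of the 27 genes 14 had a negative fold change at E13.5 and a positive one at E16.5, and 3 the reverse. With all PGC groups in one fit only *Fdft1* was called, and the call of *Sqle* was lost in 14 of the alternatives.

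Between the sexes at E13.5 the IUHG difference was called for 2 of 28 genes, both more positive in females, against 1.2% of all genes more positive in females and 2% more negative. *Srebf2* was 0.80 in females and -0.74 in males, a difference of 1.54 ± 0.22 (adjusted p = 0.00101). It held under every alternative run. *Msmo1* was 0.40 and -0.48, a difference of 0.88 ± 0.17 (adjusted p = 0.00636), which was lost with FPKM (0.68), without the TPM filter (0.88), under median-of-ratios scaling (0.67), where *Insig2* was called as more negative in females, and without any 1 control sample of either sex or any 1 IUHG male sample (0.84 to 0.92). Without IUHG E13.5 female sample 3, 6 genes were called.

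In females between E13.5 and E16.5 only *Acat2* was called, lower under IUHG at E13.5 and higher at E16.5, a difference of 1.62 ± 0.29 (adjusted p = 0.0047). All genes gave 1.35% more positive at E16.5 and 0.578% more negative. The call was lost without control E13.5 sample 1 (1.53) or 3 (1.57), IUHG E13.5 sample 1 (1.57) or 2 (1.58), any control E16.5 sample (1.59 to 1.64) and IUHG E16.5 sample 2 (1.48) or 3 (1.51), and without the TPM filter (1.62). Without IUHG E13.5 sample 3, 2 genes were called, and with all PGC groups in one fit 4 were called, *Acat2* among them.

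**Figure D4:**
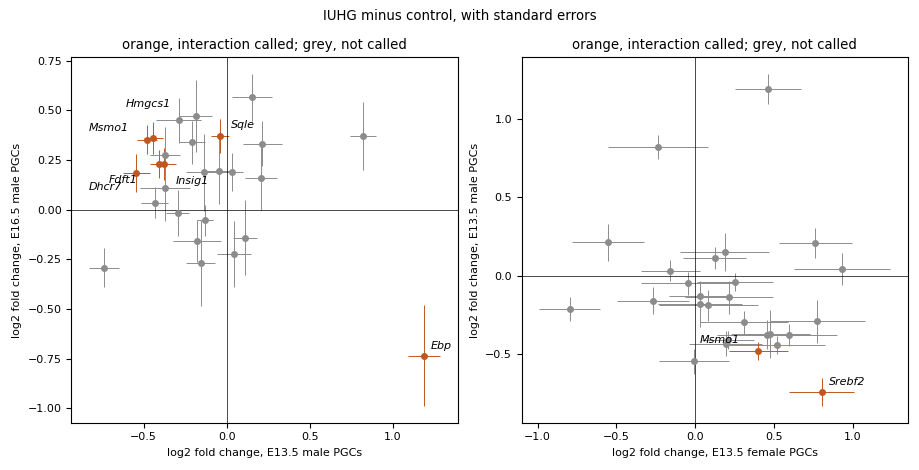
Log2 fold changes of IUHG against control with SE bars, for male PGCs at E13.5 (horizontal) and E16.5 (vertical) on the left, and for E13.5 PGCs of females (horizontal) and males (vertical) on the right. Each point is 1 gene, orange where the interaction was called. On the left 14 of 27 points lie in the upper left, and *Ebp* lies farthest to the lower right of 3 points there.

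Genes around the pathway, from 5 lists chosen by function, gave few calls in the 6 comparisons of IUHG with control, and some were called in the interactions. Of the 14 genes of isoprenoid branches, 19 of sterol transport, storage and efflux and 10 of SREBP processing, 0 were called in any of the 6 comparisons (limma). The share of all genes called ran from 0.201% to 3.92% over these comparisons. In the male stage interaction 1 of 14 isoprenoid and 2 of 18 tested transport genes were more positive at E16.5, against 4.94% of all genes. There 1 of the 18 and 1 of 10 SREBP processing genes were more negative, against 3.35%. The sex interaction called 1 of the 14 isoprenoid genes as more positive in females (1.2% of all genes) and 0 of the other 2 lists. The female stage interaction called 0 in these lists. Of 12 further genes of fatty acid synthesis 1 was called, *Acss2*, an acetyl-CoA synthetase, which rose in E16.5 females from 98.9 ± 18.4 TPM to 205 ± 12.4 TPM (1.06 ± 0.14, adjusted p = 0.00419). There 11 of the 12 were tested, and 0.736% of all genes were called. The IUHG difference of *Acss2* was more positive at E16.5 than at E13.5 in females (2.56 ± 0.27, adjusted p = 6.71e-05). At E13.5 it was more negative in females than in males (-1.57 ± 0.26, adjusted p = 0.00268). These interactions called 1 of 12 more positive (1.35% of all genes) and 2 of 12 more negative (2%). The male stage interaction called 1 of 12 more positive at E16.5 and 2 more negative, against 4.94% and 3.35%. Of 11 genes of steroid hormone synthesis 7 were tested in E13.5 males and 3 fell, the markers named above, against 3.92% of all genes called in either direction. All 3 averaged under 1 TPM in IUHG males, so they passed the filter through control samples and could only fall. In the sex interaction 3 of 7 were more positive in females, against 1.2% of all genes. Among them *Cyp11a1* and *Cyp17a1* reached 1 TPM at E13.5 only in control males. The female stage interaction gave 1 of 5 more positive at E16.5 (1.35% of all genes), and the male one 0 of 10. In gonads 1 of 9 tested fell, *Hsd3b6* (-1.09 ± 0.20, adjusted p = 0.035), against 0.612% of all genes called. Control gonad sample 1, with steroidogenic markers at 295 TPM, was part of that comparison, and the value without it is not given here.

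In control PGCs these lists held calls over stage and sex. *Acss2* was higher in females than in males at E13.5 (3.15 ± 0.15) and at E16.5 (3.01 ± 0.16), with 98.9 ± 18.4 TPM against 11.4 ± 1.43 TPM at E16.5. Of the sterol transport list 9 of 18 tested genes were higher in E16.5 males (28% of all genes) and 2 in females (22.9%), among the latter *Abca1*, a sterol exporter (1.72 ± 0.17). From E13.5 to E16.5 in females 4 of 16 of these fell (9.78% of all genes) and 1 rose (18.4%), with *Scarb1*, a lipoprotein receptor, at -2.27 ± 0.19. In the isoprenoid list *Pdss1*, which makes the tail of ubiquinone, rose in females over this interval (1.37 ± 0.17) and fell in males (-1.28 ± 0.10). In the SREBP list *Rnf145*, a ubiquitin ligase, fell in males (-2.05 ± 0.08). Of the 10 tested genes of steroid synthesis 8 were higher in E16.5 males and 0 in females, against 28% and 22.9% of all genes. From E13.5 to E16.5 in females only 5 of this list reached the TPM minimum. The others therefore entered the sex comparison through the male group and could only be called higher in males, which fixes much of this split.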

How the data were processed

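Gonads (6 libraries) and *Oct4-EGFP* sorted PGCs (30) were profiled by RNA-seq. The authors aligned reads of gonads with HISAT2 and of PGCs with STAR, and quantified genes with StringTie. Deposited TPM values were scaled by the authors for transcript length and to a common total. Deposited FPKM values were scaled by the authors for length and mapped fragments. Deposited coverage, the depth over transcript bases, was left unscaled by the authors, and its ratio to FPKM gave the aligned bases. Read counts were not used here, so counting error is unknown. The methods name mm9 for gonads and Mm39 for PGCs, and the submitters' processing notes mm39, but the gonad positions match GRCm38.

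The members and gene lists were chosen with earlier results of these data known. Rows sharing a gene ID were summed. Genes with a mean of at least 1 TPM in a compared group were tested as log2(TPM + 1), with a pseudocount of 1, in limma 3.58.1 in R 4.3.3 (lmFit, eBayes with a trend, two-sided, Benjamini-Hochberg over all genes), each comparison on its own groups. Interactions were fitted on 4 groups. The scripts were tested on simulated data. The rule for named genes took all 28 members, with values per sample for those called or not overlapping under IUHG, and the called genes with the lowest p of the other lists. To keep the text readable, values per sample were printed only for the members a result turns on, and fold changes for the rest. Each choice was changed once: FPKM in place of TPM, 0.1 as the pseudocount, dropping the filter, scaling by the median of ratios, fitting all PGC groups together, blocking on the replicate number, a looser threshold, and leaving out each library. Python 3.11.15, numpy 2.4.6, pandas 2.3.3 and matplotlib 3.10.9 were used for the rest.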

Additional observations from a re-analysis of the deposited data

Results flagged for a closer look

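The IUHG difference of 10 gene and interaction pairs differed between sexes or stages by the interaction test (limma, adjusted p under 0.01). Between females and males at E13.5 the female minus male difference was 1.54 for *Srebf2* and 0.88 for *Msmo1* on the log2 scale. Between E16.5 and E13.5 in females it was 1.62 for *Acat2*. Between E16.5 and E13.5 in males it was 0.80 for *Hmgcs1*, 0.64 for *Fdft1*, 0.41 for *Sqle*, 0.83 for *Msmo1*, 0.73 for *Dhcr7*, 0.60 for *Insig1* and -1.92 for *Ebp*. The steroidogenic marker sums were lower in IUHG males at both stages, and their part in these differences was not tested.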

How the results depend on the processing

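No member reversed under any alternative among 64 single-gene calls, of which 40 were kept under every alternative, and 212 of 263 counts and medians stayed within 1.5 times or 1 SD. Without a fold threshold, at an adjusted p under 0.05, the members called numbered 1 in gonads, 11 in E13.5 males, 2 in E16.5 females and 4 in E16.5 males under IUHG, 18 and 21 from E12.5 to E13.5 females and males, 21 and 22 from E13.5 to E16.5, 23 and 20 between the sexes at E13.5 and E16.5, and 4, 2 and 13 in the sex, female stage and male stage interactions. For stage, sex and interactions the share of all genes at this looser threshold is not given here. Those counts therefore do not set the members apart from other genes. At the main thresholds used here, with all PGC groups in one fit, the members called numbered 0 in E13.5 males and 2 in E16.5 females, and 4 and 1 in the female and male stage interactions. Without the TPM filter, at the same thresholds, the sex and female stage interactions gave 1 and 0 members called. Median-of-ratios scaling gave 7 members called from E12.5 to E13.5 females and a median of 0.14 in E16.5 males, and FPKM medians of 0.10 in E16.5 females and 0.13 in E16.5 males. Shares of all genes called under these alternatives are not given here. The causes were not tested.

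Without 1 library in turn, calls ranged from 0 to 0 in gonads, at E12.5, in E13.5 females and in E16.5 males, from 1 to 1 in E13.5 males and 0 to 1 in E16.5 females, 4 to 5 and 5 to 6 from E12.5 to E13.5 females and males, 12 to 14 and 10 to 11 from E13.5 to E16.5, 8 to 10 and 10 to 13 between the sexes, and 1 to 6, 0 to 2 and 6 to 8 in the sex, female stage and male stage interactions. Medians ranged from -0.01 to 0.04 in gonads, -0.201 to -0.0627 at E12.5, 0.11 to 0.29 in E13.5 females, -0.25 to -0.12 in E13.5 males, 0.0550 to 0.235 in E16.5 females and 0.18 to 0.22 in E16.5 males. Replicate numbers did not pair the samples, since same-numbered samples correlated at -0.08 to 0.13 and no comparison had all 3 above 0.1. With the number as a replicate block the count was 1 in E13.5 males and 0 in the other 5 IUHG comparisons. Depth per gene is unknown, so small differences may not have been detectable.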
